A study of Sus scrofa with 22 samples.

Results

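The genes described here encode 5 lysosomal proteases, cathepsins B, D, H, K and Z (CTSB, CTSD, CTSH, CTSK and CTSZ). They were chosen by gene symbol, from the accession that each array probe carries, and are 5 of the 24766 genes tested. Their transcripts were assayed in small-intestinal tissue from 22 piglets (Large White × Danish Landrace crosses, specific pathogen free), given as 3 days old, that had suckled the sow from birth. The piglets belong to 2 separate experiments. In the first, 6 piglets were given 1 dose of doxorubicin (DOX), an inhibitor of topoisomerase II, and 6 were left untreated. In the other, 5 piglets received busulfan with cyclophosphamide (BUCY), drugs that alkylate DNA, and 5 piglets of that experiment were untreated. The drugs were given through a catheter in the jugular vein, which piglets received under anaesthesia before treatment together with an orogastric tube. The sources used here do not give doses, the time of sampling or the part of the small intestine.

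Cathepsins are made as inactive precursors, carried to the lysosome through mannose 6-phosphate receptors, and activated in its acid lumen, where they digest proteins from endocytosis and autophagy. CTSB, CTSH, CTSK and CTSZ are cysteine proteases held in check by cystatins, whereas CTSD is an aspartic protease that cystatins do not inhibit. CTSB cuts within proteins and also removes dipeptides from their ends, CTSK is known as the collagen-degrading enzyme of osteoclasts, CTSH works mainly as an aminopeptidase, and CTSZ, also called cathepsin X, is a carboxypeptidase. In the intestine of newborn mammals, lysosomes of absorptive cells digest milk proteins taken up whole, and macrophages are rich in the same enzymes.

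The 5 genes were measured by 10 probes, 4 for CTSB, 2 each for CTSD and CTSH and 1 each for CTSK and CTSZ, and each probe stood well above background on all 22 arrays. They correspond to pig gene identifiers 100037961 (CTSB), 494568 (CTSD), 396969 (CTSH), 397569 (CTSK) and 100141405 (CTSZ). Values are log2 ratios, on 1 array, of the RNA of a piglet (Cy5) to pooled RNA of all samples (Cy3), so a value of 0 is the level of the pool, and levels of different genes cannot be set against each other. The brightest probe stood for its gene, with the others as a check. A gene is called changed where limma's moderated test, adjusted by Benjamini-Hochberg over all 24766 genes, gave a p under 0.05. The replicate is the piglet. The share of probes well above background was 59.7% on BUCY treated array 3, the lowest, and at most 72.5%. BUCY treated array 2 is the only array on slide 4. Precision is limited by how many arrays each group has. The 9 enterocyte markers tested, among them ANPEP, DPP4 and TMPRSS15, stood above background on every array. Since at least 59.7% of probes did so on each array, this is only a weak check of the tissue label.

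After BUCY, 2 of the 5 cathepsins fell, CTSB and CTSK, and 0 rose. The other three had lower means after BUCY but did not pass the test. As a background, 9.04% of all genes tested were called lower after BUCY. The treated and untreated groups did not overlap for the same 2 genes, and the groups of the BUCY experiment did not overlap for 6.56% of all genes. After DOX, 0 of the 5 cathepsins were called, where 0.848% of all genes were called in either direction (210 genes, with 3421 at an unadjusted p under 0.05). The treated and untreated groups of the DOX experiment overlapped for each of the 5, while they did not overlap for 2.61% of all genes. These are bulk tissue measurements, in which fewer cells of a type and less RNA per cell cannot be told apart.

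**Figure D1:**
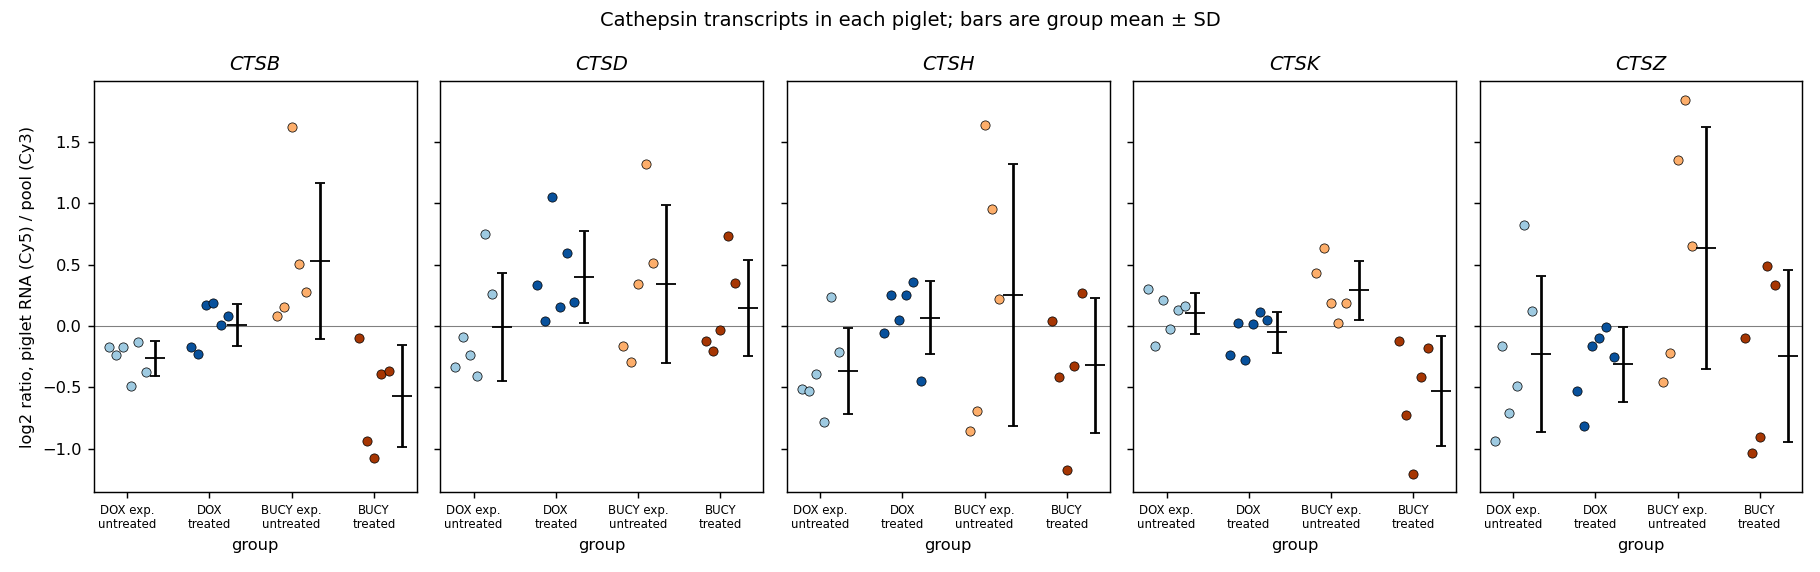
Log2 ratio of each piglet's RNA to the pool (vertical axis) for the 5 cathepsin genes in the 4 groups (6, 6, 5 and 5 piglets). Points are piglets and bars are the group mean ± SD. For CTSB and CTSK the 5 BUCY treated piglets lie below the 5 untreated piglets of that experiment, and for CTSD, CTSH and CTSZ the groups overlap.

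CTSB showed the larger fall of the pair. In the untreated piglets of the BUCY experiment its log2 ratios were 0.085, 0.16, 1.63, 0.50 and 0.27. In the BUCY treated piglets they were -0.097, -0.94, -1.08, -0.39 and -0.37. Every treated piglet was thus below every untreated one, with untreated array 3 far above its group and treated arrays 2 and 3 the lowest. The mean fell from 0.53 ± 0.63 (SD, n = 5) to -0.57 ± 0.42 (SD, n = 5), a log2 change of -1.10 (SE 0.22, 95% confidence interval -1.57 to -0.64), or 2.15-fold lower, with limma's adjusted p = 0.00238. The test used the spread pooled over the 4 groups. With only the BUCY experiment in the fit, CTSB had limma's adjusted p = 0.0662, and without the 2 lowest treated arrays, 2 and 3, its log2 change was -0.81 with limma's adjusted p = 0.0518. The call was also lost without the 6 arrays with a suffix in their titles (-1.14, limma's adjusted p = 0.0611). Leaving out untreated array 3, the highest, gave -0.83 with limma's adjusted p = 0.00264.

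The 3 further CTSB probes were also lower after BUCY. Their log2 changes were -0.85 (limma's adjusted p over probes 0.007), -1.07 (0.0257) and -0.83 (0.202), so the dimmest of the 4 did not pass on its own. Their correlations with the brightest probe over the 22 arrays were 0.87, 0.78 and 0.60.

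CTSK, measured by 1 probe, varied least among untreated piglets of the BUCY experiment. Its log2 ratios there were 0.43, 0.63, 0.19, 0.022 and 0.19, and after BUCY they were -0.13, -0.73, -1.21, -0.42 and -0.18. All 5 treated piglets lay below the pool and all 5 untreated piglets above it. The mean fell from 0.29 ± 0.24 (SD, n = 5) to -0.53 ± 0.45 (SD, n = 5). The log2 change was -0.82 (SE 0.16, 95% confidence interval -1.16 to -0.48), or 1.77-fold lower, with limma's adjusted p = 0.00206. With only the BUCY experiment in the fit CTSK had limma's adjusted p = 0.0522, and without treated arrays 2 and 3 its log2 change was smaller, -0.53, with limma's adjusted p = 0.0272.

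CTSZ had the second largest mean difference after BUCY and a wide spread. Its log2 ratios were -0.46, -0.22, 1.35, 1.84 and 0.65 in untreated piglets and -0.095, -1.04, -0.91, 0.49 and 0.33 in treated ones. The groups overlapped, although all 5 treated piglets were below the untreated mean. The log2 difference was -0.88 (SE 0.40, 95% confidence interval -1.71 to -0.050) with limma's adjusted p = 0.131. CTSZ passed the threshold where slide or scan day entered the fit. Its log2 change was then -1.20 with slide as a fixed block (limma's adjusted p = 0.0322), -1.03 with slide as a random block (0.0499) and -1.03 with a block for the scan day (0.0489). Slide as a fixed block takes BUCY treated array 2 out of the comparison, since that array is alone on its slide.

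CTSH spread most among untreated piglets of the BUCY experiment, at -0.86, -0.69, 1.64, 0.96 and 0.22. After BUCY its log2 ratios were 0.039, -0.42, -1.18, -0.32 and 0.27, which lie within the range of the untreated piglets apart from array 3. The log2 difference was -0.58 (SE 0.36, 95% confidence interval -1.32 to 0.17) with limma's adjusted p = 0.281. The second CTSH probe, which tracked the first with a correlation of 0.99 over the 22 arrays, gave -0.53.

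CTSD, the aspartic protease, had the smallest difference after BUCY. The untreated piglets stood at -0.17, -0.29, 0.34, 1.32 and 0.51, and the treated piglets at -0.12, -0.21, -0.033, 0.73 and 0.35. The treated values all lie within the untreated range. The log2 difference was -0.20 (SE 0.28, 95% confidence interval -0.77 to 0.37) with limma's adjusted p = 0.656, an interval that leaves room for a fall of 0.77 on the log2 scale. Its sign was not stable. The CTSD difference was 0.11 with array weights and 0.045 without untreated array 4.

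After DOX, CTSB, CTSD and CTSH had higher means and CTSK and CTSZ lower means than untreated piglets, with overlapping ranges and no call. CTSB ranged from -0.49 over a median of -0.20 to -0.13 in the 6 untreated piglets and from -0.23 over 0.043 to 0.19 in the 6 treated ones. The treated piglets were all above the untreated mean, and 2 of them, arrays 1 and 2, stayed within the untreated range. The CTSB difference was 0.27 on the log2 scale (SE 0.20, 95% confidence interval -0.15 to 0.70, limma's adjusted p = 0.578). This SE pools the spread of the 4 groups. The SD of CTSB was 0.17 in DOX treated and 0.14 in untreated piglets, against 0.42 and 0.63 in the BUCY experiment. With only the DOX experiment in the fit, 0 of the 5 cathepsins were called.

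For CTSD the untreated piglets of the DOX experiment ran from -0.40 over a median of -0.16 to 0.75, and the treated piglets from 0.042 over 0.26 to 1.06. The treated piglets were all above the untreated mean of -0.0093, and the single untreated array 5, at 0.75, exceeded all treated arrays but one. The CTSD difference was 0.41 (SE 0.25, 95% confidence interval -0.12 to 0.93, limma's adjusted p = 0.499). CTSH ran from -0.78 over -0.45 to 0.24 in untreated piglets and from -0.45 over 0.15 to 0.36 in treated ones, and 5 of 6 treated piglets were above the untreated mean. Its difference was 0.43 (SE 0.33, 95% confidence interval -0.25 to 1.12, limma's adjusted p = 0.582).

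CTSK ran from -0.16 over a median of 0.15 to 0.30 in untreated piglets of the DOX experiment and from -0.28 over 0.020 to 0.12 in treated ones. Its difference was -0.16 (SE 0.15, 95% confidence interval -0.47 to 0.15, limma's adjusted p = 0.673). The BUCY estimate of -0.82 lies outside this interval but has an interval of its own (-1.16 to -0.48). The difference between the drugs was not called for CTSK (-0.67, limma's adjusted p = 0.0793). CTSZ ran from -0.94 over -0.33 to 0.82 in untreated piglets and from -0.82 over -0.21 to -0.011 in treated ones. The CTSZ difference was -0.086 (SE 0.36, 95% confidence interval -0.84 to 0.67, limma's adjusted p = 0.939), and it changed sign without untreated array 5 (0.12) or treated array 2 (0.015).

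**Figure D2:**
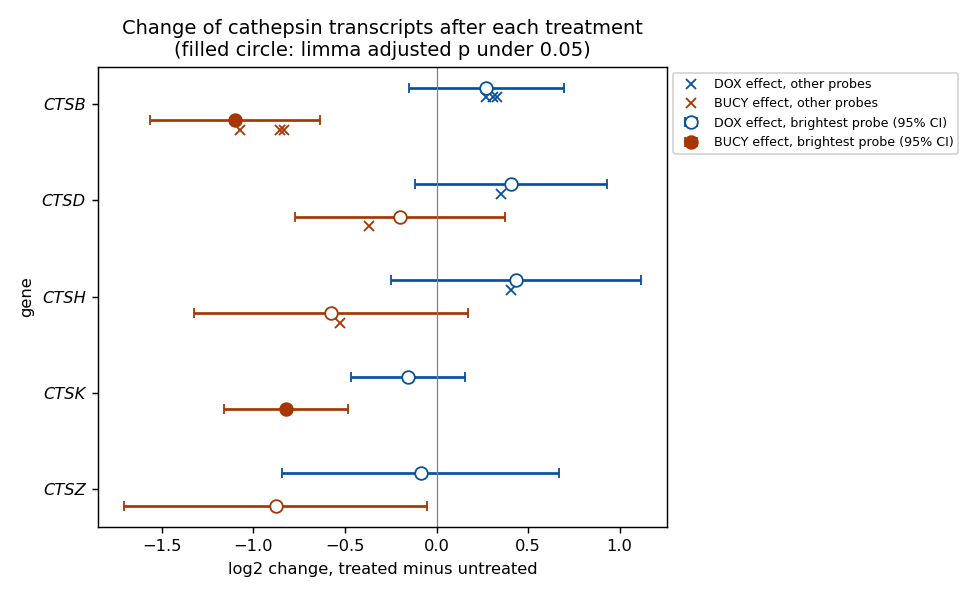
Log2 change after DOX (blue) and BUCY (red) for each cathepsin gene, with circles for the brightest probe, bars for its 95% confidence interval and crosses for the other probes of the gene. The BUCY intervals of CTSB (-1.57 to -0.64) and CTSK (-1.16 to -0.48) lie below 0 with filled circles, and no DOX circle is filled.

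Whether the drugs differed in their effect was tested as the BUCY effect minus the DOX effect. CTSB was the single cathepsin called, at -1.38 on the log2 scale (SE 0.30, limma's adjusted p = 0.00966), where 2.73% of all genes were called in the lower direction. The 2 experiments had their own untreated piglets, and drug and experiment cannot be told apart in this contrast. CTSK had a difference of -0.67 (limma's adjusted p = 0.0793), which passed without BUCY treated array 1 (-0.77, limma's adjusted p = 0.0278), with a block for the scan day (-0.66, 0.0473) and with array weights (-0.69, 0.036). CTSH had a difference of -1.01 (limma's adjusted p = 0.256), CTSZ of -0.79 (0.47) and CTSD of -0.61 (0.405), and of these CTSD passed with slide as a fixed block, at -1.01 (0.0296). CTSB lost the call without BUCY treated arrays 2 and 3 (-1.09, limma's adjusted p = 0.0536), without the 6 arrays whose titles end in a suffix (-1.38, 0.103) and with median centring in place of loess (-1.86, 0.129).

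The untreated piglets of the experiments were themselves unlike. CTSB was higher in those of the BUCY experiment, by 0.79 on the log2 scale or 1.73-fold (SE 0.21, limma's adjusted p = 0.00884), and the 5 piglets there lay above the 6 of the DOX experiment. Of all genes, 13.0% were called higher in the untreated piglets of the BUCY experiment, and the 2 untreated groups did not overlap for 17.9%. Without BUCY untreated array 3 the CTSB difference was 0.52 (limma's adjusted p = 0.0193), and median centring ended the call (0.56, 0.384). The means of CTSD, CTSH, CTSK and CTSZ were also higher there, by 0.35 (limma's adjusted p = 0.37), 0.62 (0.209), 0.19 (0.427) and 0.86 (0.106), with no call. CTSZ passed without BUCY untreated array 1 (1.13, 0.0347) or DOX untreated array 5 (1.07, 0.0461). Between BUCY treated and DOX treated piglets 0 of the 5 cathepsins were called, where 10.6% of all genes were called in either direction. CTSK came nearest, at -0.48 (limma's adjusted p = 0.0532), followed by CTSB at -0.58 (0.0815), CTSH at -0.39 (0.496) and CTSD at -0.25 (0.575), with CTSZ at 0.069 (0.933). This count of 0 depended on the setting, since median centring called CTSB (-1.30), CTSD (-0.90) and CTSK (-0.95), slide as a fixed block called CTSB (-0.84), and CTSK was called in 4 and CTSB in 2 of the 22 fits without 1 array.

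These contrasts share groups, and the order of the 4 group means shows how. For CTSB the order from high to low was untreated BUCY experiment, DOX treated, untreated DOX experiment and BUCY treated, with means of 0.53, 0.0088, -0.26 and -0.57. CTSH ran in the same order for its first 2 places, with 0.25 and 0.068, followed by BUCY treated (-0.32) and untreated DOX experiment (-0.37). For CTSK the order was untreated BUCY experiment (0.29), untreated DOX experiment (0.10), DOX treated (-0.053) and BUCY treated (-0.53). For CTSZ the untreated piglets of the BUCY experiment (0.63) stood above the other three groups, which lay between -0.31 and -0.23. CTSD alone was highest in DOX treated piglets (0.40), then 0.34 in untreated piglets of the BUCY experiment, 0.14 after BUCY and -0.0093 in untreated piglets of the DOX experiment. Neighbouring groups in each of these orders overlapped in their ranges.

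Part of the spread within groups ran along the slides on which arrays were processed. In a fit with group and slide, CTSD differed between slides (limma's F test, adjusted p = 0.0468), where 1.14% of all genes did. In a fit with group and scan day, CTSD differed between the 3 scan days (limma's F test, adjusted p = 0.0342), where 4.43% of all genes did. Each slide lies within a scan day, so this test covers part of the slide differences again. For CTSB, CTSZ, CTSH and CTSK the adjusted p of limma's F test for slide was 0.0866, 0.108, 0.173 and 0.283. For CTSD the 4 arrays of slide 5 averaged 0.51 above and those of slide 2 averaged -0.43 from their group means. On slide 5 CTSH averaged -0.043, so these genes did not deviate alike there. The 2 arrays of slide 3 averaged 0.87 above for CTSH and 0.79 above for CTSB, against -0.13 for CTSD. For CTSZ slide 2 averaged -0.73 and slide 7 averaged 0.50. Whether slide stands for the hybridisation, the extraction or the piglets placed on it was not tested.

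**Figure D3:**
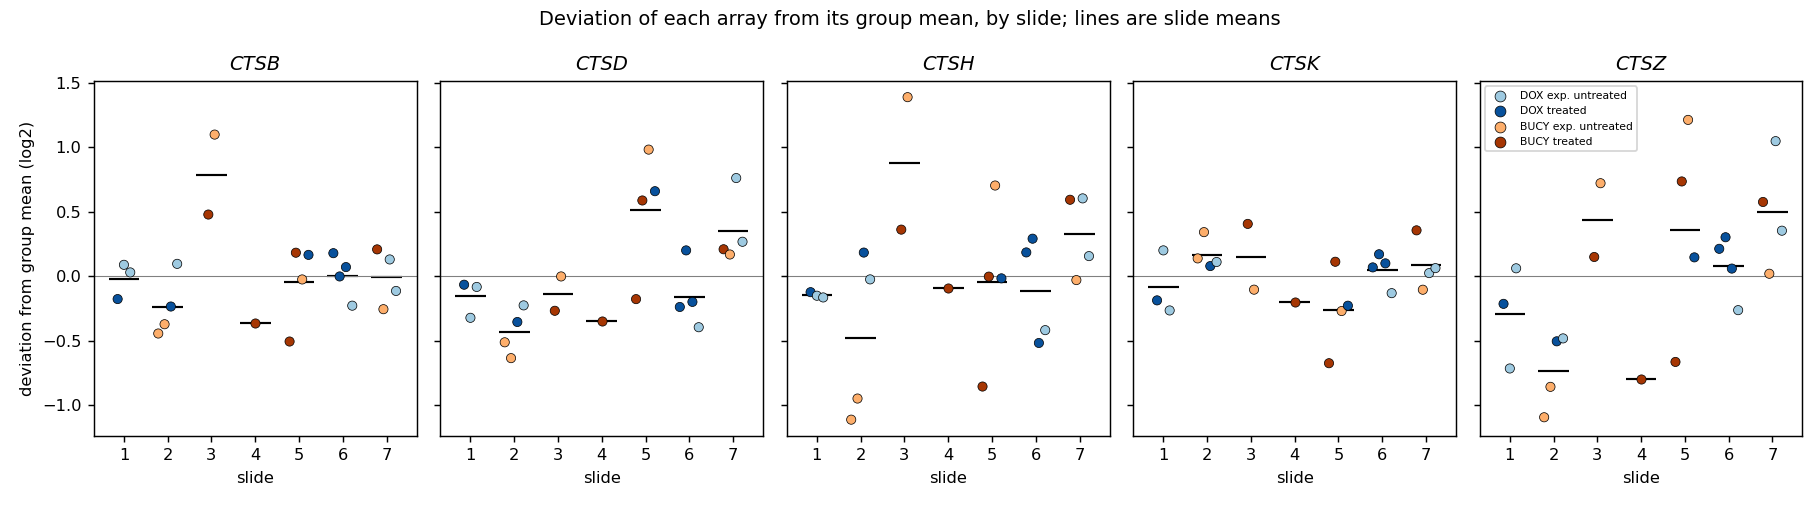
Deviation of each array from the mean of its group (log2, vertical axis) on the 7 slides for the 5 cathepsin genes, coloured by group, with lines at the mean of each slide. For CTSZ the 4 arrays of slide 2 lie below their group means (mean -0.73) and the 4 of slide 7 above (mean 0.50).

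The 3 slides that held both groups of the BUCY experiment each had 1 or 2 treated arrays and 1 untreated array. On them the treated minus untreated difference was -1.72 to -0.64 for CTSB and -0.83 to -0.31 for CTSK on the log2 scale. These groups did not overlap for CTSB and CTSK, so a negative sign on each slide was fixed beforehand. The -1.72 came from slide 3, which held the high untreated array 3 (1.63). CTSZ was lower after BUCY on 3 of 3 (-2.05 to -0.32), CTSD on 3 of 3 (-0.98 to -0.16) and CTSH on 2 of 3 (-1.71 to 0.047). By scan day the ranges over 3 days were -1.24 to -0.64 for CTSB, -0.84 to -0.36 for CTSK and -2.05 to -0.32 for CTSZ. They were -0.98 to -0.13 for CTSD and -1.71 to 0.047 for CTSH. For the BUCY experiment, scan day 2 held only slide 5 and scan day 3 only slide 7. Their values by day therefore repeat those by slide. For DOX, 3 slides held both groups. There the treated minus untreated difference was above 0 on each for CTSD (0.28 to 0.72) and CTSH (0.47 to 0.84). It changed sign between slides for CTSB (-0.058 to 0.58), CTSK (-0.31 to 0.089) and CTSZ (-0.11 to 0.37). These slide values rest on 1 to 3 arrays a side and carry no test.

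Pairs of the cathepsins differed in how closely they varied together. Over the 22 arrays, which share the pool as their reference, the correlation was 0.75 between CTSB and CTSH, 0.75 between CTSH and CTSZ, 0.73 between CTSD and CTSZ and 0.66 between CTSB and CTSZ. It was 0.59 between CTSB and CTSK, and CTSK had correlations of 0.25, 0.23 and -0.083 with CTSZ, CTSH and CTSD. Taken as deviations from the group means, CTSD and CTSZ had the highest correlation, 0.84, and CTSB and CTSK 0.26. With slide also taken out, the correlation was positive for each of the 10 pairs, from 0.24 (CTSH and CTSK) to 0.89 (CTSD and CTSZ). It was then 0.46 for CTSB and CTSK, 0.36 for CTSK and CTSZ and 0.47 for CTSD and CTSK, the pair whose sign turned.

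The genes with the most similar pattern also differed between the 5. Among 2651 genes with a symbol, those with the highest correlation with CTSB over the 22 arrays included GUSB (0.91), the lysosomal enzyme beta-glucuronidase, and CSTB (0.90), a cathepsin inhibitor. For CTSZ they included ITM2C (0.94), a membrane protein, and the lysosomal glycosidase HEXA (0.92). For CTSH they included LRPAP1 (0.85), a chaperone of lipoprotein receptors, and SLC38A6 (0.78), a member of an amino acid transporter family. For CTSD they were PGA5 (0.92), a pepsinogen and so another aspartic protease, TNIP1 (0.87), an inhibitor of NF-kappaB signalling, and TMUB1 (0.84). CTSK stood closest to EIF1B (0.92), TTC14 (0.91) and ZFAND5 (0.89), none of them a lysosomal protein. PGA5 and CTSD are related in sequence, and the part of shared hybridisation in their correlation was not tested.

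Of the 3 genes closest to CTSK, all fell after BUCY, EIF1B by 0.78, TTC14 by 0.69 and ZFAND5 by 0.58 on the log2 scale (limma's adjusted p = 0.00764, 0.00434 and 0.0175). Of those closest to CTSD, PGA5 had a log2 difference of -0.20 after BUCY (limma's adjusted p = 0.701) and 0.60 after DOX (0.355), both uncalled like those of CTSD. These genes were chosen for likeness over the same arrays, so their changes are a description.

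Other genes of the lysosome were read from the same fit. Of 18 other cathepsins and lysosomal peptidases listed, 2 could be tested. CTSA, the protective protein that stabilises beta-galactosidase and neuraminidase, fell by 1.13 on the log2 scale after BUCY (2.19-fold lower, SE 0.27, limma's adjusted p = 0.00681). Between untreated groups CTSA was 1.48 higher in the BUCY experiment (limma's adjusted p = 0.000183). Between treated groups its difference was 0.092 (0.855). CTSV, whose probes may include those for cathepsin L because pig annotation lists CTSL as a synonym, had log2 differences of 0.023 after BUCY (limma's adjusted p = 0.932) and 0.29 after DOX (0.303). Both of the tested cathepsin inhibitors fell after BUCY, with 0 to 2 called over 41 alternatives. CSTB, the intracellular cystatin B, fell by 0.99 (limma's adjusted p = 0.00761) and CST3, the secreted cystatin C, fell by 1.003 (0.00875). After DOX their differences were 0.23 (0.663) and -0.46 (0.369). IGF2R, a mannose 6-phosphate receptor and the 1 tested gene of 13 listed for enzyme sorting, had differences near 0, -0.027 after BUCY (limma's adjusted p = 0.881) and 0.0065 after DOX (0.983).

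Of 31 other lysosomal hydrolases and activators listed, 13 were tested. After BUCY 8 fell, where 9.04% of all genes were called lower, 0 rose and 5 did not pass. The median log2 change of the 13 was -0.80, where that of all genes was -0.001. ARSA, which removes sulfate from sulfatides, went from 1.05 ± 0.65 (SD, n = 5) in untreated to -0.52 ± 0.52 (SD, n = 5) in treated piglets, 2.99-fold lower (log2 change -1.58, limma's adjusted p = 0.000429). GUSB was 2.53-fold lower (log2 change -1.34, limma's adjusted p = 0.00172). Between the untreated groups, 8 of the 13 were called higher in the BUCY experiment and 1 lower, where 13.0% of all genes were called higher. Between the treated groups 0 of the 13 were called, where 10.6% of all genes were called in either direction. ARSA differed by 1.71 between untreated groups (limma's adjusted p = 2.9e-05) and by -0.0094 between treated groups (0.986). After DOX 0 of the 13 were called, with a median of 0.094, and the one with the smallest p, the cholesterol carrier NPC2, had a difference of 0.33 (limma's adjusted p = 0.496).

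Of 23 genes listed for the lysosomal membrane and proton pump, 7 were tested, with a median of -0.51 after BUCY. Of the 7, 4 fell, where 9.04% of all genes were called lower, and 0 rose. Those that fell included the membrane glycoprotein LAMP2 (-1.26, limma's adjusted p = 0.00653), SCARB2, a lysosomal membrane protein (-0.51, 0.015), and ATP6V1H, a subunit of the proton pump (-0.59, 0.035), whose call was lost in 14 of 41 alternatives. Between untreated groups 1 of the 7 was called higher and 1 lower in the BUCY experiment. Between treated groups 2 of the 7 were called lower after BUCY than after DOX, and 0 higher, where 10.6% of all genes were called in either direction. After DOX 0 of the 7 were called, and the pump subunit ATP6V1A had a difference of -0.33 (0.146). Of 14 regulators listed, 2 were tested. BECN1, which starts autophagosome formation, rose by 0.69 after BUCY (limma's adjusted p = 0.0347), opposite in sign to CTSB and CTSK, a call lost in 13 of 41 alternatives. MITF, a transcription factor of the family that drives lysosomal genes, had differences of -0.16 after BUCY (0.384) and 0.23 after DOX (0.378).

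**Figure D4:**
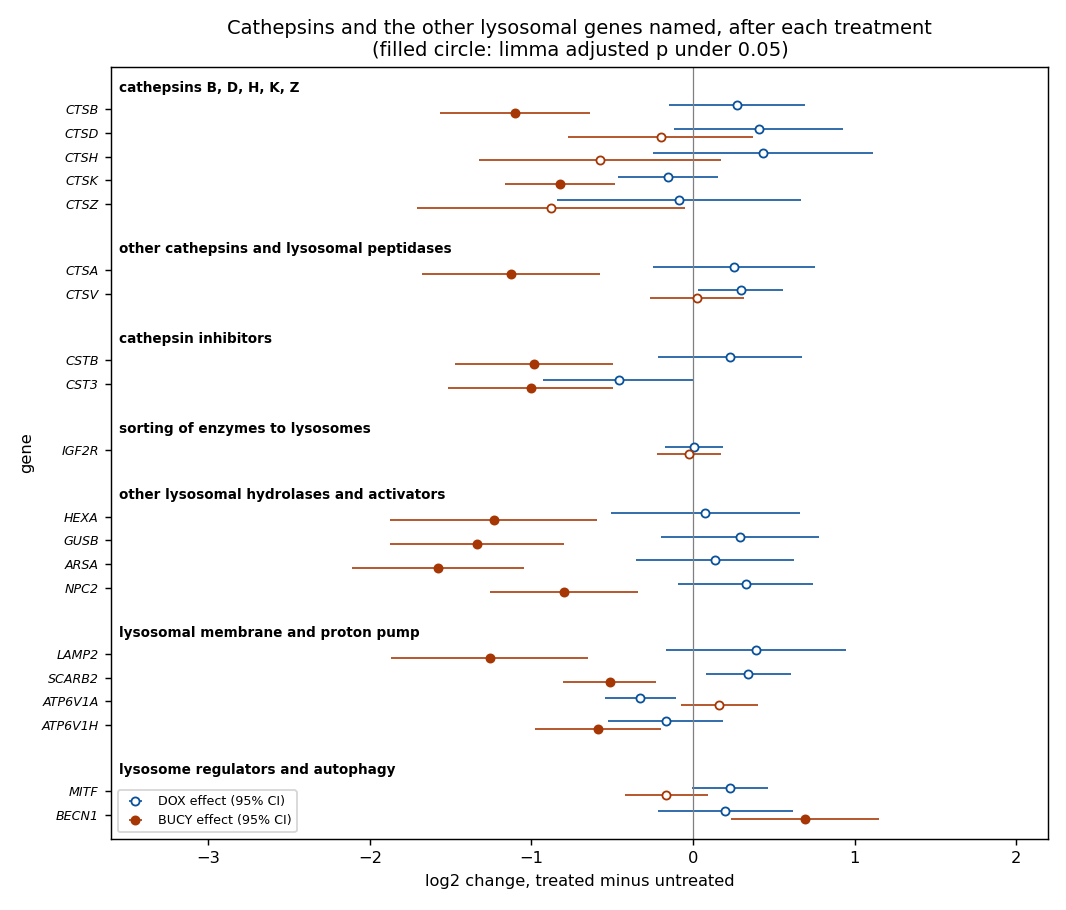
Log2 change after DOX (blue) and BUCY (red) with 95% confidence intervals for the 5 cathepsins and for the other lysosomal genes named in the text, grouped by role, with filled circles where limma's adjusted p was under 0.05. Filled BUCY circles below 0 include ARSA (-1.58), GUSB (-1.34) and LAMP2 (-1.26), BECN1 (0.69) is the filled circle above 0, and no DOX circle is filled.

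Markers of cells that carry these enzymes moved as well, and their part in the fall of CTSB and CTSK was not tested. Of 9 enterocyte markers tested (14 listed), 5 fell after BUCY, where 9.04% of all genes were called lower, and 0 rose. The median of the 9 was -0.99, and between 0 and 5 were called over 41 alternatives. The other 4 did not pass, and 1 of the 9 had a higher mean after BUCY. Those that fell included TMPRSS15, the protease that activates trypsin (-1.96, limma's adjusted p = 0.00335), and the brush border peptidases DPP4 (-1.67, 0.00556) and ANPEP (-0.99, 0.0175). The mean level of the 9 markers ran from -2.42 over a median of -0.091 to 0.64 in BUCY treated piglets and from -0.050 over 0.43 to 0.71 in untreated ones, so the groups overlapped. FCGRT, the neonatal receptor for antibodies and the 1 tested gene of 6 listed for endocytosis in newborn enterocytes, had a difference of -0.36 after BUCY (limma's adjusted p = 0.115) and -0.21 after DOX (0.542).

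Of 10 macrophage and monocyte markers tested (14 listed), 2 rose and 2 fell after BUCY, where 8.24% of all genes were called higher and 9.04% lower. The median of the 10 was -0.47, with 7 of them lower, and the number called was between 1 and 6 over 41 alternatives. The scavenger receptor CD163 rose by 1.44 and CD14, a receptor for bacterial lipopolysaccharide, by 0.81 (limma's adjusted p = 0.000166 and 0.0138), while AIF1, a cytoskeletal protein of macrophages, fell by 0.54 (0.0438), a call lost in 22 of 41 alternatives. After DOX CD163 rose by 1.31 and CD14 by 1.26 (limma's adjusted p = 0.000507 and 0.00118), and 0 of the 10 were called lower. Of the 10, 7 had lower values after DOX, and the median was -0.24. The mean of the 10 ran from -0.84 over -0.49 to 0.24 in BUCY treated piglets and from -0.66 over -0.26 to -0.032 in untreated ones.

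Of 7 fibroblast and matrix markers tested (12 listed), 0 were called after BUCY, with SPARC, a matrix glycoprotein, at -0.34 (limma's adjusted p = 0.156) and a median of 0.031. Their mean level ran from -0.38 over 0.016 to 0.52 in BUCY treated piglets and from -0.095 over 0.0081 to 0.25 in untreated ones. After DOX 1 of the 7 fell, COL1A2, a chain of type I collagen (-0.88, limma's adjusted p = 0.0457), with a median of -0.52 over the list, while CTSK was not called. The call of COL1A2 was lost in 21 of 41 alternatives. Of 11 T and NK cell markers tested (14 listed), 9 fell after BUCY, where 9.04% of all genes were called lower. After DOX 3 fell, where 0.848% of all genes were called in either direction. Those that fell after BUCY included the granzymes GZMA (-2.37, limma's adjusted p = 0.000192) and GZMB (-2.35, 0.000183) and the T cell receptor subunit CD3E (-1.37, 6.26e-05). The GZMA probe was above background on 4 of 5 BUCY treated arrays. Among the others that fell, CD3D was above background on 1 of these arrays, CD3G on 4 and CD2, CD8A and KLRK1 on 3, so the sizes of these falls are less certain. After DOX they were CD8A (-1.005, 0.000295), LCK (-0.94, 0.00886) and CD3E (-0.71, 0.0383). The mean of the 11 ran from -1.43 over -1.12 to -1.02 in BUCY treated piglets and from -0.33 over -0.048 to 0.45 in untreated ones. Of 3 neutrophil markers tested (7 listed) 0 were called after either drug, and S100A12 had differences of 0.25 after BUCY (limma's adjusted p = 0.518) and 0.48 after DOX (0.344), with the probe above background on 2 of 5 treated and 3 of 5 untreated arrays of the BUCY experiment.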

How the data were processed

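The 22 two-colour Agilent arrays lie on 7 slides, scanned over 3 days. Cy5 labelled the piglet and Cy3 a pool of all samples, per the labels, with no dye swap. The part of a probe's dye bias that is constant over arrays cancels in comparisons. A part that varies between arrays does not, and what remained of it after normalisation was not tested. The deposited scanner files, written by Agilent Feature Extraction 10.7.3.1 per the file headers, hold median intensity of spots and background, quality flags and a log10 ratio of Cy5 to Cy3. The authors' deposited value table holds log2 ratios. The submitters' processing notes list Agilent Feature Extraction and limma, without steps of normalisation. Array by array, the table correlated with the values below at 0.974 to 0.998, which settles the direction. A correlation cannot settle the base of the logarithm. The column medians of the table lay between 0.0015 and 0.018. It served as an alternative.

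Median signals, in place of planned mean signals, were corrected by normexp (offset 50) and normalised by loess with control spots at weight 0, in limma 3.58.1 and R 4.3.3. Scanner outlier spots (0 to 42 per array) were dropped, 0 of them on a cathepsin probe, and 0 spots were saturated. RefSeq tables of the pig assembly named 6700 of 43603 probes (15.4%). Probes carrying other kinds of identifier stayed unnamed, so a list gene without a value is not analysed here. The brightest probe stood for a gene, tested if Cy5 exceeded background clearly on 5 or more arrays. This left 24766 genes, 2652 of them with a symbol.

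One limma model (lmFit, eBayes, two-sided) held the 4 group means (18 residual, 3.38 prior degrees of freedom), with Benjamini-Hochberg adjustment over all genes and a threshold of 0.05. In data simulated for the BUCY comparison over 5000 genes, 60% of genes changed by 1 on the log2 scale and 96% of those changed by 2 were called. The simulated noise was normal, with the same SD in the 4 groups and no slide effect. Spread in the real data differed between groups, so these shares need not hold for the cathepsins. Gene lists, 12 with 175 genes, came from general knowledge. The rule for names took the 5 members, up to 3 genes per list and drug past the threshold by smallest p or else the first by p, and the 3 genes most correlated with each member; some of these are not reported here. The members and lists were chosen with earlier results of these data known. No sequence of a promoter, protein or probe was used here, and no coordinates are given because the array files name no genome build. Alternatives changed background correction, normalisation, the source of the ratio, filters, probes, slide and scan day as blocks, samples in the fit and array weights, and left out arrays. Quantile normalisation between arrays and the F tests of slide and scan day were added after the data were seen. Plots used Python 3.11.15 with matplotlib 3.10.9.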

Additional observations from a re-analysis of the deposited data

Results flagged for a closer look

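In 140 groups of 5 or 6 piglets, over the members and the other named genes, 8 held a piglet far from the others, where chance flags about 1 in 20. One was a cathepsin value, CTSB at 1.63 on BUCY untreated array 3, with the other 4 piglets of that group at 0.085 to 0.50. The others were NPC2 on DOX treated array 1 (-0.36), ATP6V1A on BUCY untreated array 3 (0.092) and CD3E on DOX untreated array 4 (-0.018). CD14 stood apart on BUCY treated array 5 (1.36) and on BUCY untreated array 5 (0.41), and S100A12 on BUCY treated array 3 (1.41) and on BUCY untreated array 2 (0.18).

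The effect of BUCY was lower than that of DOX, by limma's test of the difference itself, for CTSB (-1.38 on the log2 scale) and for these other genes. The difference was -1.38 for CTSA, -1.22 for CSTB, -1.13 for NPC2, -1.71 for ARSA, -1.63 for GUSB, -1.65 for LAMP2 and -0.86 for SCARB2. It was -2.48 for TMPRSS15, an enterocyte marker. The untreated piglets differed between the experiments, and drug and experiment cannot be told apart.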

How the results depend on the processing

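Over the 22 fits that each left out 1 array, CTSB after BUCY stayed called with log2 changes of -1.22 to -0.83, and CTSK with -0.92 to -0.65. Leaving out an array of the DOX experiment cannot move these changes, only the spread used in the test. Of the 19 other alternatives, CTSB was called in 16 and CTSK in 18. These include settings that repeat the ratios of the main fit for these genes, among them Aquantile normalisation and the changed filters on dim probes. For CTSK the mean over probes is also the same probe. The alternatives are thus not independent of each other. In the authors' deposited table their changes were -0.99 and -0.86 (limma's adjusted p = 0.00286 and 0.00265). The call of CTSB was lost without the 6 arrays with titles ending in a suffix (-1.14, limma's adjusted p = 0.0611) and without BUCY treated arrays 2 and 3 (-0.81). It was also lost with only the compared groups in the fit (-1.10), as was that of CTSK (-0.82). Each of these fits held fewer arrays, and why the calls were lost was not tested. The CTSB difference between the drugs was -1.38 without the suffixed titles and -1.09 without arrays 2 and 3. On the dimmest CTSB probe the BUCY change (-0.83), the difference between drugs (-1.14) and the untreated difference (0.77) lost their calls, as did the difference between drugs on another (-1.40).

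Median centring in place of loess shifted the median of all genes by -0.12 for the BUCY effect and -0.11 for the treated groups. It gave -1.75 for CTSB and -1.23 for CTSK after BUCY, both called. It ended the call of CTSB for the difference between drugs (-1.86) and between untreated groups (0.56). Between treated groups it brought calls for CTSB (-1.30), CTSD (-0.90) and CTSK (-0.95), and it turned the sign of CTSK between untreated (-3e-04) and of CTSZ between treated groups (-0.55). The cause was not tested.

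With slide fixed, CTSZ after BUCY (-1.20), CTSD for the difference between drugs (-1.01) and CTSB between treated groups (-0.84) were called, and CTSZ between treated groups turned to -0.41. With slide random (correlation 0.17) these CTSZ values were -1.03 and -0.094. With scan day as a block CTSZ after BUCY (-1.03) and CTSK between drugs (-0.66) were called, the latter also with array weights (-0.69), which turned CTSD after BUCY to 0.11. CTSK between treated groups (-0.48) was called among genes above background on all arrays. Without the suffixed titles CTSD between untreated groups was -0.029, CTSZ between treated groups -0.22 and S100A12 after BUCY -0.075, which was -0.15 without arrays 2 and 3.

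Leaving out 1 array moved calls or signs as follows: CTSK between treated groups -0.58 to -0.31 (called without DOX treated array 1, BUCY untreated array 2 or BUCY treated array 1 or 5) and between drugs -0.77 to -0.50; CTSB between treated groups -0.70 to -0.46 (called without BUCY treated array 1 or BUCY untreated array 3); CTSZ between untreated groups 0.56 to 1.13, after DOX -0.23 to 0.12 and between treated groups -0.11 to 0.27; CTSD after BUCY -0.36 to 0.045; S100A12 after BUCY -0.094 to 0.40. IGF2R ranged from -0.027 to 0.039 after DOX and from -0.078 to 0.039 after BUCY. Its sign also turned after DOX (-0.0085, -0.0076, -0.013, -0.0051, -0.027 and -0.012) and after BUCY (0.064, 0.16, 0.020, 0.071, 0.075 and 0.076) under other alternatives. Aquantile normalisation leaves the ratios as they are by construction.

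The number of all genes called ranged from 89 (median centring) to 1279 (array weights) around 210 for DOX, from 892 (only the groups compared) to 6289 (without BUCY treated array 1) around 4280 for BUCY, and from 104 to 2392 around 1458 for the difference between drugs. It ranged from 958 to 4548 around 2629 between treated groups and from 3852 to 7643 around 6241 between untreated groups. Of the lysosomal lists after BUCY, 2 to 9 hydrolases were called over 41 alternatives, 0 to 5 membrane and pump genes, 0 to 2 inhibitors and 0 to 1 regulators. Of the markers, 0 to 5 enterocyte, 1 to 6 macrophage and 3 to 10 T and NK cell genes were called after BUCY, and 0 to 2 fibroblast genes after DOX. No paired analysis was possible because the numbering of piglets only names them and links none across groups.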
